A study of Mus musculus with 14 samples.

Results

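Cldn3, Cldn4, Cldn5 and Cldn6 encode 4 members of the claudin family and were followed in every RNA sequencing library of a reprogramming time course. The genes were found by their symbols, which matched 4 of the 26962 genes listed in any library. Mouse embryonic fibroblasts of strain OG2/129SV received Oct4, Sox2, Klf4 and c-Myc, the factors that convert somatic cells to pluripotency, together with either a control vector or Cdk9-DN. All groups therefore carried the 4 factors, and all grew in LIF-containing stem cell medium. Cdk9, the catalytic part of P-TEFb, lets paused RNA polymerase II proceed into elongation, and the labels name the construct Cdk9-DN without describing its promoter or its level. Cells were harvested 3, 4, 5 and 10 days after infection, with 1 library per vector at day 3 and 2 per vector on each later day, 14 in all. The question put by the design is how gene expression during reprogramming differs when Cdk9-DN is present.

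Claudins are membrane proteins with 4 transmembrane segments that join neighbouring epithelial or endothelial cells at tight junctions and set which ions pass between them. Cldn3 and Cldn4 are broadly expressed in simple epithelia, Cldn5 is best known from endothelium, and Cldn6 from early embryonic epithelia and pluripotent cells. Fibroblasts do not normally form tight junctions, and a shift from mesenchymal to epithelial character is a known step of reprogramming with these factors. Snail, Zeb and Twist proteins repress epithelial genes, claudins among them, the Snail and Zeb proteins by binding the E-box CAGGTG.

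The deposited tables place Cldn3 on chromosome 5 at 135462083 to 135463342 of mm9 (plus strand) and Cldn4 at 135420995 to 135422804 of the same chromosome (minus strand), with 39278 bases between them. Cldn5 lies on chromosome 16 at 18776939 to 18778353 and Cldn6 on chromosome 17 at 23816331 to 23819413, both on the plus strand. In GENCODE M21 all 4 are protein-coding. Cldn3, Cldn4 and Cldn5 each have 1 transcript with 1 exon, and Cldn6 has 3 transcripts of 2 to 3 exons. The end of Cldn3 overlaps Wbscr25 on the opposite strand, but Wbscr25 was listed at 0 in all 14 libraries. Of the 36-base stretches in the transcripts, 0 of 1781 for Cldn4 occurred in a transcript of another gene, against 2 of 1718 for Cldn6 (both in Cldn9) and 5 of 1224 for Cldn3 (all in Wbscr25).

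The start regions of the 4 genes are printed because the genes moved together at day 10 and differ in the motifs they hold. They were taken from RefSeq (GRCm38.p6), where 4 of 4 symbols matched, as the 250 bases before each start and short stretches after it. Capitals mark CAGGTG on either strand (read as CACCTG on the other) and the AP-1 motif TGANTCA.
Cldn3, bases before the start, chr5:134985964-134986213, plus strand: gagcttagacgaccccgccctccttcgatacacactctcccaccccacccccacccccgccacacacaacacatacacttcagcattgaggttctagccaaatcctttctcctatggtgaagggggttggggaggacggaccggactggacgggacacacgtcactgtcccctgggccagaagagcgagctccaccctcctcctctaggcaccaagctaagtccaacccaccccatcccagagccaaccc
Cldn3, stretch after the start, chr5:134986236-134986259, plus strand: agccacaggCAGGTGcaggggcag
Cldn4, bases before the start, chr5:134946935-134947184, minus strand: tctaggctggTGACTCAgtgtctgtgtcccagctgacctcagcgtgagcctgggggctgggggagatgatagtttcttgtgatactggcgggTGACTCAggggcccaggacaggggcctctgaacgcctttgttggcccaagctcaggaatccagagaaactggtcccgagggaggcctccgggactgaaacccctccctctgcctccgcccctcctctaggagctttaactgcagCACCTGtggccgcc
Cldn4, stretch after the start, chr5:134946909-134946932, minus strand: ttcttgttgCAGGTGcaggcagga
Cldn5, bases before the start, chr16:18776597-18776846, plus strand: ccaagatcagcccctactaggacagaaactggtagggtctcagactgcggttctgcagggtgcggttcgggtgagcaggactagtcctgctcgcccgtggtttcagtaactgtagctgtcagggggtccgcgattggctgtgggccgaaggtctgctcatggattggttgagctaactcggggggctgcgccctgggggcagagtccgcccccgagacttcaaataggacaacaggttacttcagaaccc
Cldn6, bases before the start, chr17:23679115-23679364, plus strand: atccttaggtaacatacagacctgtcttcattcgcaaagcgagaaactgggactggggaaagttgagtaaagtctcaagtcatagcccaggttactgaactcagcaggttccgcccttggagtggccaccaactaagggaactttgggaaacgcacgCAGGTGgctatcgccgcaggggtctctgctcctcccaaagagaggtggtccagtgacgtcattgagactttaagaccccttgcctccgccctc
Cldn6, stretch after the start, chr17:23679396-23679414, plus strand: tctcttttgCAGGTGagcc
CAGGTG occurred once in the 300-base window of Cldn3, at +32 from the start. Cldn4 held it at -14 and +12, and Cldn6 at -93 and +41, whereas the window of Cldn5 did not hold it. Of 32851 RefSeq windows of the same length, 20.2% held CAGGTG and 2.88% held it 2 or more times. TGANTCA was found in Cldn4 alone among the 4, at -240 and -158. It occurred in 7.81% of all windows, and 2 or more times in 0.46%. The GC box GGGCGG, searched on both strands, was found in all 4 windows and in 35.7% of all windows. The general E-box CANNTG, which includes every CAGGTG, was also found in all 4, and in 72.3% of all windows. TATAAA was found in none of the 4 and in 13.6% of all. These matches describe letters in a window and not binding.

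Values are FPKM, fragment counts scaled to exon length and sequencing depth. The depth implied by the deposited confidence bounds was 8.79 to 13.0 M fragments per library. The 10 most abundant genes held 33.4% to 76.2% of the summed FPKM, with the highest shares in 3 day 5 libraries. The tables list different genes for different libraries, with 18914 genes in all 14, and Cdk9 was listed in 0 libraries, so its own level was not analysed here. The fibroblast label was checked with Thy1, a surface marker listed at 81.9 and 83.6 FPKM in control libraries at day 4. Differences are on the log2(FPKM + 1) scale, which understates the change of low genes, and were tested with limma over the 12 libraries of days 4, 5 and 10. A gene was called at a Benjamini-Hochberg adjusted p under 0.05 over all genes tested. The labels do not say that libraries of one group came from separate cultures, and each p-value therefore rests on the spread among these libraries, which may be technical. In bulk RNA, fewer cells expressing a gene and less RNA per cell cannot be told apart.

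Up to day 5, Cldn3 was the only one of the 4 claudins above 1 FPKM in any library. At day 3 it stood at 0.799 FPKM with the control vector and 0.583 FPKM with Cdk9-DN. At day 4 the control libraries held 2.14 and 2.003 FPKM and the Cdk9-DN libraries 2.05 and 2.12 FPKM. At day 5 they held 4.98 and 5.32 FPKM with the control vector and 7.69 and 4.59 FPKM with Cdk9-DN. The day 5 values lay above all day 4 values with either vector, while the vectors overlapped on both days. Between days 4 and 5 Cldn3 rose by 1.0 on the log2 scale in control cells (SE 0.185, adjusted p = 0.0296) and by 1.18 in Cdk9-DN cells (SE 0.185, adjusted p = 0.0239). In that interval 1.83% of all genes tested were called higher in control cells (109, against 190 lower) and 1.34% in Cdk9-DN cells (79, against 115 lower). The split was 65 against 232 in control and 44 against 186 in Cdk9-DN cells with quantile normalization, and 66 against 164 in Cdk9-DN cells with median-of-ratios scaling, and Cldn3 kept both calls under these scalings. Leaving out libraries ended both calls. In control cells the adjusted p reached 0.136 without control day 5 replicate 2, 0.132 without control day 4 replicate 2, 0.120 without its replicate 1 and 0.0909 without control day 5 replicate 1. It stood between 0.0507 and 0.0542 without either control day 10 library or either Cdk9-DN day 4 library. In Cdk9-DN cells it reached 0.115 without the day 4 replicate 1 and 0.0974 without replicate 2.

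Cldn4, Cldn5 and Cldn6 were near the limit of detection through day 5. Cldn4 stood at 0.143 FPKM (control) and 0.0851 FPKM (Cdk9-DN) at day 3. It was listed at 0 in both control libraries of day 4, against 0.108 and 0.0928 FPKM with Cdk9-DN. At day 5 it was listed at 0 and 0.0624 FPKM with the control vector and at 0 and 0.0878 FPKM with Cdk9-DN. These levels corresponded to between 1 and 3 fragments, so no order of the groups can be read from them. Cldn5 was listed at 0 in all 6 libraries of days 3 and 4. At day 5 it stood at 0.1205 and 0.248 FPKM in control cells and at 0.0709 FPKM and 0 in Cdk9-DN cells. Cldn6 was listed at 0.0588 and 0.0524 FPKM at day 3, at 0.0693 and 0.056 FPKM in control cells at day 4, and at 0.0541 FPKM in 1 Cdk9-DN library of day 5. It was listed at 0 in the other 5 libraries of days 4 and 5.

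**Figure D1:**
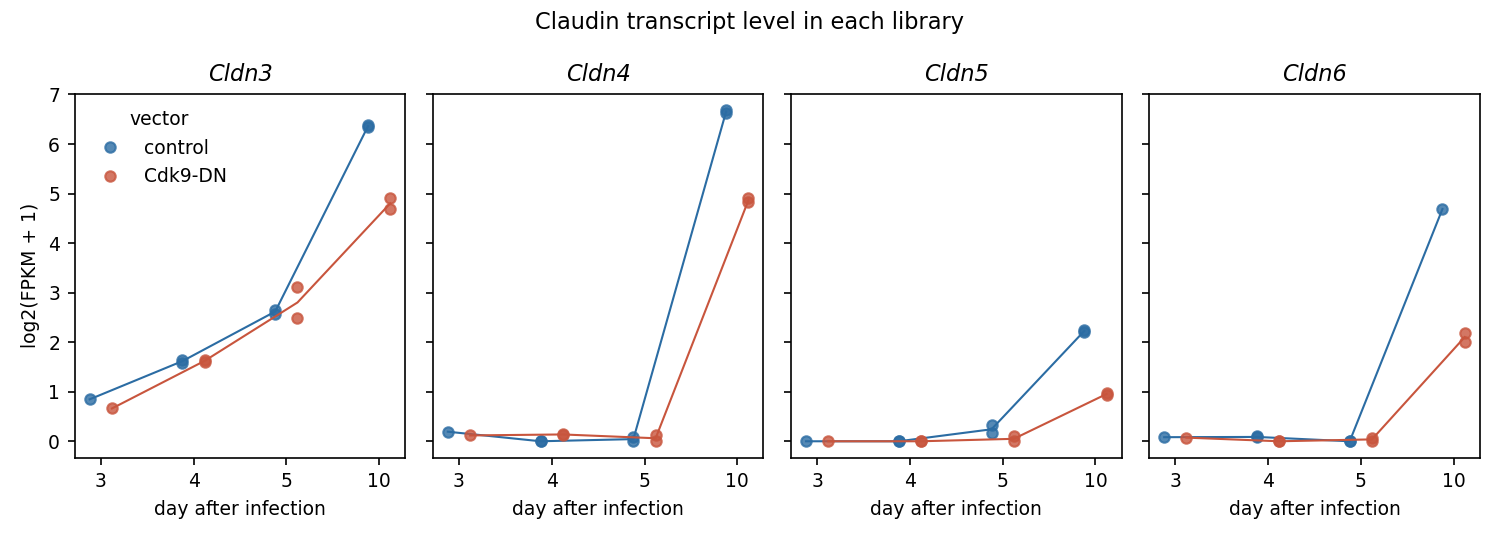
Level of each claudin, as log2(FPKM + 1), in each library that lists it (points, blue for the control vector and red for Cdk9-DN) against the day after infection (not to scale), with lines joining the group means. Cldn3 climbed from day 3 onwards with both vectors, whereas Cldn4, Cldn5 and Cldn6 left the baseline between days 5 and 10, and the Cdk9-DN libraries lie below the control libraries at day 10.

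No difference between the vectors was called for any of the 4 claudins at day 4 or day 5. At day 4 limma called 0 of the 4, against 2 genes (0.0336%) of the 5950 tested. At an unadjusted p under 0.05 there were 0 of the 4, against 388 of the 5950. At day 5 limma called 0 of the 4, against 10 genes (0.169%) of the 5902 tested. At an unadjusted p under 0.05 there was 1 of the 4, against 500 of the 5902. That 1 was Cldn5, with a log2 difference of -0.19 (95% interval -0.38 to -0.01, adjusted p = 0.566). For Cldn3 the interval of the difference at day 5 ran from -0.25 to 0.62, which does not show that the vectors acted alike. At day 4 it ran from -0.43 to 0.44.

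At day 10 all 4 claudins were lower with Cdk9-DN than with the control vector. Cldn4 stood at 101.9 and 98.0 FPKM in control cells and at 29.0 and 27.3 FPKM in Cdk9-DN cells. Cldn3 held 82.0 and 80.2 FPKM against 29.1 and 24.9 FPKM. Cldn6 held 24.8 FPKM in the 1 control library that lists it against 3.58 and 3.03 FPKM, and Cldn5 held 3.77 and 3.597 FPKM against 0.920 and 0.956 FPKM. For each gene every control value lay above both Cdk9-DN values. The group mean with Cdk9-DN was 33.3% of the control mean for Cldn3, 28.2% for Cldn4, 25.5% for Cldn5 and 13.3% for Cldn6. On the log2(FPKM + 1) scale the difference was -1.56 for Cldn3 (SE 0.185, adjusted p = 0.00122) and -1.79 for Cldn4 (SE 0.0726, adjusted p = 1.30e-05). It was -1.27 for Cldn5 (SE 0.0787, adjusted p = 8.19e-05) and -2.58 for Cldn6 (SE 0.105, adjusted p = 4.03e-05). At this time 28.9% of all genes tested were called, 14.4% of those tested as lower and 14.5% as higher, so a call by itself was common.

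The 4 claudins passed the low-value filter, 1 FPKM or more in 2 or more of the 12 libraries tested, in different ways. Cldn5 passed through the 2 control libraries of day 10 alone, and Cldn4 and Cldn6 through day 10 libraries alone, so their number is given as a description. The p-values of Cldn5 that involve day 10 are likewise a description, because its high control values there brought it into the test. The depth behind the values also differed. The deposited bounds imply 2115 and 2132 fragments for Cldn4 in control cells at day 10 and 658 and 634 in Cdk9-DN cells. For Cldn5 they imply 57.3 and 57.3 fragments against 16 and 17, so Cldn5 is the least precisely measured of the 4 at day 10. For Cldn3 the level that 1 fragment stands for varied between 0.0777 and 0.144 FPKM over the libraries without following depth, so the bounds give no fragment count for it.

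**Figure D2:**
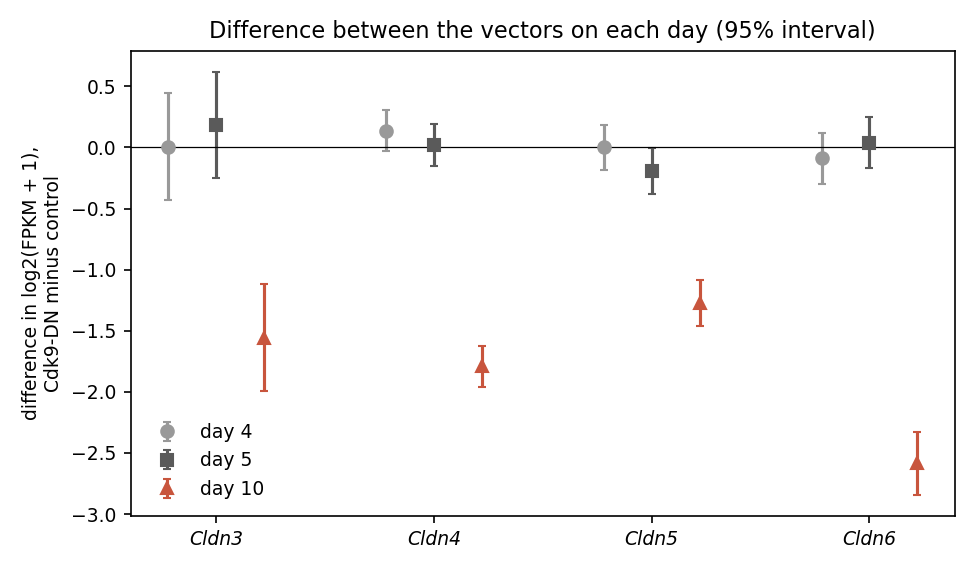
Difference between Cdk9-DN and control cells in log2(FPKM + 1) for each claudin at day 4 (grey circles), day 5 (dark squares) and day 10 (red triangles), with 95% intervals from limma. The day 10 differences lie between -2.58 and -1.27, and the day 4 and day 5 differences between -0.19 and 0.18.

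By group means the claudins stood in the order Cldn4, Cldn3, Cldn6 and Cldn5 at day 10 with either vector, but the distances between them differed. FPKM is scaled for length, so levels can be set side by side between genes, with a limit for Cldn3 and Cldn6. The level that 1 fragment of Cldn3 stands for at day 10 was 0.110 and 0.106 FPKM in the control libraries. In the Cdk9-DN libraries it was 0.0811 and 0.0777 FPKM. The level for 1 fragment of Cldn6 was 0.0712 FPKM in the 1 control library and 0.0555 and 0.0541 FPKM in the Cdk9-DN libraries. How far this enters the ratios of Cldn3 and Cldn6 and their differences between the vectors was not tested. In control cells Cldn4 stood above Cldn3 in both libraries, with a Cldn3 to Cldn4 ratio of 0.804 and 0.818. In Cdk9-DN cells the ratio was 1.003 and 0.912, and the levels of the 2 genes overlapped. The ratio of Cldn4 to Cldn5 was 27.0 and 27.2 in control cells and 31.5 and 28.6 in Cdk9-DN cells. Cldn6 moved apart from the others: Cldn3 stood at 3.31 times its level in the control library and at 8.13 and 8.21 times in the Cdk9-DN libraries. With 1 control value for Cldn6, whether its difference was larger than that of the other claudins was not tested.

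All 4 claudins rose between days 5 and 10 with either vector. In control cells the change was 6.61 for Cldn4 (SE 0.0726, adjusted p = 9.30e-09), 4.69 for Cldn6 (SE 0.105, adjusted p = 8.03e-07), 3.74 for Cldn3 (SE 0.185, adjusted p = 6.53e-06) and 1.99 for Cldn5 (SE 0.0787, adjusted p = 2.28e-06). In Cdk9-DN cells it was 4.80 for Cldn4 (SE 0.0726, adjusted p = 9.08e-08), 2.07 for Cldn6 (SE 0.0858, adjusted p = 1.85e-05), 2.0 for Cldn3 (SE 0.185, adjusted p = 2.31e-04) and 0.90 for Cldn5 (SE 0.0787, adjusted p = 1.84e-04). Cldn6 was listed at 0 in both control libraries of day 5, and the size of its change therefore depends on the 1 FPKM added before taking logs. The same holds in part for Cldn4 and Cldn5: with 0.1 FPKM added, the changes in control cells became 9.62 for Cldn4, 3.77 for Cldn5 and 7.96 for Cldn6. With 0.1 FPKM added, those in Cdk9-DN cells became 7.69, 2.99 and 4.77. Of all genes tested, 27.3% were called higher in control cells over this interval and 22.5% in Cdk9-DN cells. In Cdk9-DN cells these were 1304 genes against 715 lower, a split that became 1004 against 973 with median-of-ratios scaling and 1005 against 846 with quantile normalization.

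The late rise was smaller with Cdk9-DN for each of the 4 claudins. The change with Cdk9-DN minus the change with the control vector was -1.74 for Cldn3 (SE 0.262, adjusted p = 0.00558) and -1.81 for Cldn4 (SE 0.103, adjusted p = 1.09e-04). It was -1.08 for Cldn5 (SE 0.111, adjusted p = 0.00127) and -2.62 for Cldn6 (SE 0.136, adjusted p = 1.84e-04). The difference was called for 16.2% of all genes tested, and in the lower direction for 7.42%. For Cldn5 the call was lost with 0.1 FPKM added (-0.78, adjusted p = 0.358). These values share the day 10 libraries with the comparison of the vectors above and are not a separate line of evidence.

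**Figure D3:**
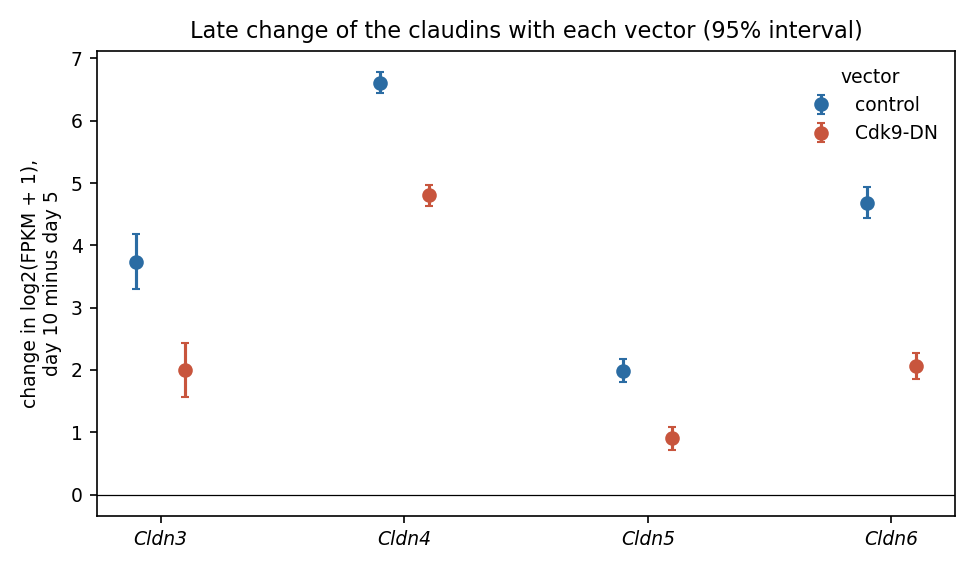
Change in log2(FPKM + 1) from day 5 to day 10 for each claudin with the control vector (blue) and with Cdk9-DN (red), with 95% intervals from limma. All changes lie above 0, and the Cdk9-DN change lies below the control change for each gene, by 1.08 to 2.62 on this scale.

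Other members of the claudin family were read beside the 4. Of 23 claudin genes listed in any library, the 4 included, 3 reached 1 FPKM on days 3 to 5 and 10 did so at day 10. Some of the rest were not listed in any day 10 library, so their level there is not known. Among the 26 other claudin symbols looked up, 18 were listed, 5 passed the filter and 4 could be tested, and all 4 were called lower with Cdk9-DN at day 10 (median -1.26, against 0 over all genes tested, of which 14.4% were called lower). Cldn1 and Cldn23 passed the filter through the control libraries of day 10 alone, so the count and the median are a description. Cldn9, a close relative of Cldn6 that lies 137 bases from its end, stood at 16.9 and 17.3 FPKM with the control vector and 2.38 and 2.49 FPKM with Cdk9-DN (-2.40, SE 0.0976, adjusted p = 1.30e-05). Cldn23 stood at 3.41 to 3.81 FPKM against 0.455 to 0.592 FPKM (-1.60, adjusted p = 3.39e-05). Cldn11, the claudin of myelin and of Sertoli cells, stood at 60.8 FPKM in 1 control library against 30.4 to 32.6 FPKM (-0.93, adjusted p = 0.00224). For Cldn1, a claudin of the epidermis, the difference was small (-0.35, adjusted p = 0.0490) and lost its call in 16 of 18 alternative settings. Other patterns were also present: Cldn13, a neighbour of Cldn4, was listed at 0 in all 14 libraries, and Cldn20 stood at 0.339 to 0.647 FPKM in control cells and 0.746 to 1.37 FPKM in Cdk9-DN cells at day 10 without having passed the filter.

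**Figure D4:**
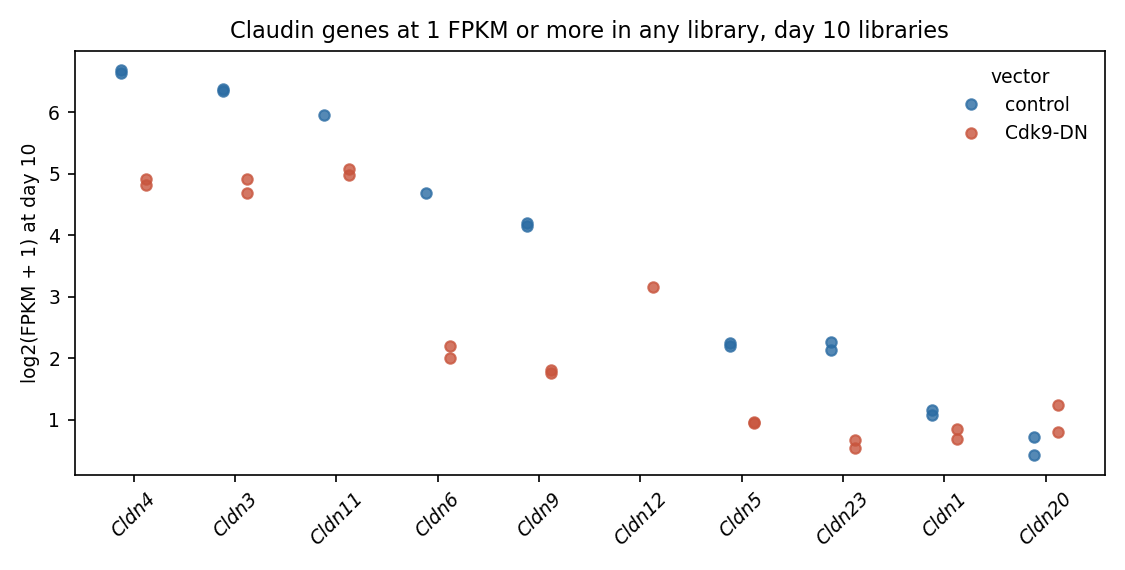
Level at day 10, as log2(FPKM + 1), of the 10 claudin genes that reached 1 FPKM in any library, in each day 10 library that lists them (blue for the control vector, red for Cdk9-DN). Control points lie above the Cdk9-DN points for all but Cldn20 and Cldn12, and Cldn12 is listed in 1 Cdk9-DN library alone at this time.

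Other tight junction genes were mostly out of reach of the test. Of 32 looked up, 10 were listed and 2 could be tested at day 10, and both were lower with Cdk9-DN (median -1.27), a direction called for 14.4% of all genes. Marveld3, a transmembrane tight junction protein, stood at 9.86 and 10.01 FPKM with the control vector and 3.17 and 3.30 FPKM with Cdk9-DN (-1.37, adjusted p = 9.94e-04), with the call lost at 0.1 FPKM added (adjusted p = 0.127). Pard6b, a polarity protein of the Par complex, stood at 9.13 to 10.4 FPKM against 3.47 to 4.05 FPKM (-1.18, adjusted p = 0.00122).

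Regulators of epithelial genes were examined beside the claudins. Of 16 epithelial regulators looked up, 9 were listed and 3 tested at day 10, of which 2 were lower with Cdk9-DN (median -0.80), beside 14.4% of all genes tested. Ovol1, listed in 1 library per vector at day 10, had 2.60 FPKM with the control vector and 1.01 FPKM with Cdk9-DN (-0.84, adjusted p = 0.0103, and 0.142 with 0.1 FPKM added). Klf5 stood at 8.41 against 4.40 FPKM, 1 library each (-0.80, adjusted p = 0.0414), and lost its call in 9 of 15 alternative settings. Of 9 repressors looked up, 4 were listed and tested, and all 4 (Snai1, Snai2, Twist1 and Twist2) fell between days 5 and 10 with either vector, with median changes of -1.62 in control cells and -1.21 in Cdk9-DN cells, where 22.5% and 12.4% of all genes tested were called lower. Twist1 was higher with Cdk9-DN at day 10, at 22.2 to 23.6 FPKM against 11.6 to 13.4 FPKM (0.83, SE 0.178, adjusted p = 0.0180). That call was lost without control day 10 replicate 1 (adjusted p = 0.0877), without Cdk9-DN day 10 replicate 1 (0.0841) and without its replicate 2 (0.0628), and in the compared groups alone (0.0510). The other 3 were not called, with differences of -0.26 for Snai1, 0.17 for Snai2 and 0.66 for Twist2.

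Markers of other cell types moved beside the claudins, and their part in the claudin differences was not tested. Of 23 general epithelial genes, 12 were listed and 7 tested at day 10, and 6 of the 7 were lower with Cdk9-DN (median -0.84), beside 14.4% of all genes tested. Among the 6, Prss8, a membrane serine protease, passed the filter through control day 10 alone, at 21.8 and 21.9 FPKM, and was listed at 0 in every other library that lists it. The 1 epithelial gene of that list present in all libraries, Krt18, a keratin of simple epithelia, stood at 83.8 to 86.6 FPKM in control cells and 6.31 to 7.10 FPKM in Cdk9-DN cells at day 10, against 0.426 to 2.11 FPKM on earlier days. Of 9 fibroblast genes, 4 were listed and 3 tested. Of these, 1 was called higher with Cdk9-DN, Dcn, a matrix proteoglycan (1.49, adjusted p = 2.16e-04), beside 14.5% of all genes tested. Thy1 (0.08) and Pdgfra (0.08) were not called. Dcn was also the only gene of that list present in all libraries, at 3.73 and 4.42 FPKM in control cells and 12.5 and 14 FPKM in Cdk9-DN cells. Of 4 keratinocyte genes 3 were listed and 2 tested at day 10. Of these, 1, Sfn, was called lower with Cdk9-DN (-0.94), beside 14.4% of all genes tested. The other, Krt5, was not called (0.22), at 10.03 FPKM in 1 control library and 11.9 FPKM in 1 Cdk9-DN library. Of 5 trophoblast genes 3 were listed, and their summed level at day 10 was 0.621 to 0.733 FPKM in control cells and 0.0622 to 0.459 FPKM in Cdk9-DN cells. Cldn5 is known as an endothelial claudin, so endothelial genes were read beside it. Of 12, 6 were listed and none could be tested. Cdh5, which encodes the cadherin that defines endothelium, was at 0.0409 and 0.078 FPKM in control cells at day 10. In Cdk9-DN cells Cdh5 was at 0.0368 and 0.0180 FPKM, and Icam2 and Emcn were at 0 wherever listed. Sox18 stood at 0.492 to 0.834 FPKM in control cells and 0.344 to 0.384 FPKM in Cdk9-DN cells. Tek was higher with Cdk9-DN, at 13.9 FPKM in 1 control library and 23.2 FPKM in 1 Cdk9-DN library. Kdr stood at 0.134 FPKM in 1 Cdk9-DN library of day 10 and was not listed in the control libraries of that day.

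Each claudin was also set beside the genes with the most similar course. Likeness was the root mean square difference between log2(FPKM + 1) profiles, each centred on its own mean, over at least 10 shared libraries of days 4 to 10. Among 1686 genes compared, Cldn3 was closest to its relative Cldn11 (0.329), then to Nrtn, a neurotrophic factor (0.348), and to Krt8, a keratin of simple epithelia (0.374). Cldn4 was closest to Saa1, an acute phase protein (0.165), Sprr1a, a cornified envelope protein (0.166), and the neuropeptide Npy (0.332). Npy was listed at 0 in 5 of the 8 libraries of days 4 and 5 and reached 122.7 to 134.01 FPKM with the control vector and 51.1 to 53.2 FPKM with Cdk9-DN at day 10. Cldn5 was closest to Sel1l3 (0.0706), Ccdc113 (0.114) and Dusp26, a phosphatase (0.130). Cldn6, with 1340 genes compared, was closest to Sprr2h (0.0462), the homeobox gene Barx2 (0.0847) and Alox12b, a lipoxygenase of the epidermis (0.0939). Sprr1a and Ccdc113 were not listed in any control library of day 10. Sprr2h and Barx2 were not listed in the control library of day 10 that lists Cldn6. The likeness of these genes therefore leaves out the group in which the claudins stood highest.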

How the data were processed

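RNA sequencing of 14 libraries was used. The authors deposited FPKM values with confidence bounds per gene, 1 table per library. Per the submitters' processing notes, CASAVA 1.8.2, TopHat2 2.0.10 and Cufflinks 2.2.1 were used with the mm9 (NCBIM37) build. Whether strand was kept is not given in the sources used here.

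From these values, 16 genes with several entries were summed, 1 entry with a failed status was left out, and genes not listed in a library were treated as missing. The 7460 genes that reached 1 FPKM in 2 or more of the 12 libraries from days 4, 5 and 10 were fitted on log2(FPKM + 1) as 6 groups by least squares over the libraries listing each gene, with the moderated variance and intensity trend of limma 3.58.1 (R 4.3.3). A gene needed at least 2 residual degrees of freedom and every group of the comparison listed. Cldn6 was fitted without control day 10 replicate 2, which does not list it. Tests were two-sided with Benjamini-Hochberg adjustment, and the fit was tested on simulated data. The single day 3 libraries entered no test. Fragments were implied from the width of the deposited bounds, which cover counting error and assignment only.

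The 4 claudins and the lists (other claudins, tight junction, epithelial regulators, claudin repressors, epithelial, endothelial, fibroblast, keratinocyte and trophoblast genes) were chosen with earlier results of these data known. Of the other claudins and the tight junction, regulator, repressor, endothelial and fibroblast lists, genes were named if called between the vectors at day 10, at most 4 of a list by size, or otherwise the 2 with the highest mean, plus the 3 genes most like each claudin. Krt18, Prss8, Sfn, Krt5, Thy1, Pdgfra, Cdh5, Kdr, Icam2, Emcn, Cldn12, Cldn13, Cldn20 and the 3 repressors that were not called were named after their values were seen. GENCODE M21 gave gene types, exons and transcripts and RefSeq (GRCm38.p6) the start regions, and no coordinate was converted between builds. Alternatives were another pseudocount, no filter, genes listed in all 12 libraries, 2 other scalings, a replicate block, the compared groups alone, and each library left out in turn. A further gene was left out of the epithelial list and is not reported here.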

Additional observations from a re-analysis of the deposited data

Results flagged for a closer look

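The change from day 5 to day 10 differed between the vectors for all 4 claudins by limma's test of the difference itself (Cdk9-DN minus control, on the log2(FPKM + 1) scale). The values were -1.74 for Cldn3, -1.81 for Cldn4, -1.08 for Cldn5 and -2.62 for Cldn6, where 16.2% of all genes tested were called. The Cldn6 value rests on 1 control library at day 10. The Cldn5 difference lost its call with 0.1 FPKM added (-0.78, adjusted p = 0.358).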

How the results depend on the processing

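Of 31 claudin results with a direction, 25 kept their direction and their side of the threshold in every alternative that gave a value. At day 10 the difference between the vectors kept its call in all of them, ranging from -1.66 to -1.45 for Cldn3, -1.83 to -1.68 for Cldn4, -1.87 to -1.25 for Cldn5 and -2.87 to -2.49 for Cldn6. Cldn6 could not be fitted in the compared groups alone at day 10 or for day 10 minus day 5 in control cells, and is not among genes listed in all 12 libraries. Day 5 minus day 4 for Cldn3 also lost its call with no filter in control cells (adjusted p = 0.0528) and in the compared groups alone (0.122 in control and 0.254 in Cdk9-DN cells). For Cldn5 the difference in late change lost its call with 0.1 FPKM added (-0.78, adjusted p = 0.358). Among differences that were not called, leaving out libraries turned the sign: the day 4 value for Cldn3 ranged from -0.0260 to 0.0378, the day 5 value for Cldn3 from -0.136 to 0.501, and that for Cldn4 from -0.0437 to 0.0777. The cause was not tested.

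Counts over all genes moved more. The vectors' day 4 count was 2 and became 6 with 0.1 FPKM added, 19 with no filter, 1 among genes listed in all 12 libraries, 7 in the compared groups alone, and 1 to 10 without single libraries. The day 5 count was 10 and became 24 with no filter, 3 among genes in all libraries, and 9 to 19 without single libraries. The day 10 count was 1658 and became 768 among genes in all libraries, 357 in the compared groups alone, and 976 to 1535 without single libraries. With genes in all libraries, where fewer genes were tested, the counts were 86 (from 299) and 46 (from 194) for day 5 minus day 4 in control and Cdk9-DN cells. They were 1485 (from 2885) and 1058 (from 2019) for day 10 minus day 5, and 385 (from 887) for the difference in late change. In the compared groups alone, with fewer samples, the first 4 of these were 26, 41, 1643 and 1287. Without single libraries they ranged from 43 to 263, 38 to 185, 2317 to 2799 and 1397 to 1989, and from 525 to 790 for the difference in late change. Labels give groups the same replicate numbers but do not tie same-numbered samples to one culture. Their deviations correlated between -0.144 and 0.107 across genes. A replicate block changed no call of Cldn3, Cldn4, Cldn5 or Cldn6, ended those of Cldn1 (adjusted p = 0.0501) and Klf5 (0.0715) at day 10, and moved the counts to 6 at day 5, 155 and 88 for day 5 minus day 4, 1397 at day 10 and 705 for the difference in late change.

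With 2 libraries per group, Cldn4, Cldn5 and Cldn6 up to day 5 stayed at or below 3 fragments per library.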
